A study of Mus musculus with 8 samples.

Results

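The genes of fatty acid oxidation and ketone body formation were examined in mouse duodenum lacking IκBα in the gut epithelium. They were chosen by name, as the probe sets whose gene symbol was 1 of 33 listed symbols. Of the 33, 31 were measured, each by 1 probe set, among 19505 named genes and 22206 probe sets in all. Etfb, which encodes a subunit of the electron transfer flavoprotein, and Ucp2, an uncoupling protein gene, were not analysed here. The 31 genes comprised 15 of mitochondrial oxidation, 6 of peroxisomal oxidation, 2 of ketone body metabolism and 8 regulators and fasting-response genes.

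Cells burn long-chain fatty acids mainly in mitochondria. The carnitine shuttle carries the acyl group across the inner membrane, and acyl-CoA dehydrogenases, hydratases, hydroxyacyl-CoA dehydrogenases and thiolases then shorten it in a repeating spiral. Peroxisomes hold a parallel set of enzymes for very-long-chain, branched and dicarboxylic acids. Where acetyl-CoA is in surplus it can be turned into ketone bodies, which other tissues use as fuel. In the small intestine these genes are active in absorptive enterocytes and respond to dietary fat and fasting through the nuclear receptor PPARα.

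The series compared 4 knockout mice, which carried a floxed IκBα gene (Nfkbia) and a Villin-Cre transgene, with 4 wild-type littermates, 1 sibling per knockout. Pair 1 was 2 males of 8 weeks and pair 2 was 2 females of 11 weeks. Pair 3 was a knockout male and a wild-type female of 8 weeks, and pair 4 a knockout female and a wild-type male of 9 weeks. None of the mice was treated. The deletion removes the promoter and the opening exons in cells where villin drives Cre, while the RNA came from whole frozen duodenum, so cells without Cre contributed. In bulk tissue, fewer cells of a type and less RNA per cell cannot be told apart. The sample labels say small intestine and the series text duodenum, and enterocyte markers averaged 12.3 to 13.0 log2 units on the 8 arrays. RNA integrity numbers ran from 7.0 to 8.7.

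Each array gave 1 log2 expression value per probe set, and differences are knockout minus wild-type sibling. Differences between pairs had largely been taken out of the deposited values, so levels were read only against the sibling. The median SD of the 4 pair means was 0.0175, and over the 31 genes it was 0.0287. Nfkbia, which checks the labels, was 6.82, 6.65, 7.72 and 6.65 in the knockouts of pairs 1 to 4 and 9.75, 9.91, 9.01 and 9.78 in their siblings. Its values did not overlap, and pair 3 had the smallest fall. The difference was −2.65 ± 0.918 (SD, n = 4 pairs, limma adjusted p = 0.0130). The number of arrays limits the precision. An exact sign-flip test on 4 differences cannot go below p = 0.125, which is the value for each gene that differed in 1 direction in all pairs. Calls therefore came from limma with the pair as a block, at a Benjamini-Hochberg adjusted p under 0.05 over all probe sets.

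Among the 31 genes 4 fell and 0 rose. The peroxisomal genes Hsd17b4, Decr2 and Acaa1a fell, as did the mitochondrial thiolase gene Acaa2. Each fell in 4 of 4 pairs, by 1.25-fold to 1.54-fold. The 4 make up 12.9% of the 31, where limma called 2.70% of all probe sets lower and 3.16% higher. At an unadjusted p under 0.05 limma gave 12 of the 31 genes lower and 2 higher, against 14.2% and 13.2% of all probe sets. Without the pair block it called 12 lower and 2 higher at the adjusted threshold, against 18.1% and 16.3% of all probe sets. That fit takes levelled siblings, which mirror each other, as independent, so its p-values are too small. Without a test, 11 of the 31 (35.5%) were lower in all 4 pairs and 3 (9.68%) were higher, against 17.9% and 16.5% of all probe sets. With pair means levelled, groups of such genes rarely overlap. Over all probe sets 3813 of the 3970 lower in all pairs and 3533 of the 3667 higher had no overlap. Absence of overlap, given for single genes below, thus adds little to the direction in all pairs. The shares over all probe sets given here are also the base for the counts of single lists below. The median difference of the 31 was −0.11, against −0.015 over all probe sets.

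**Figure D1:**
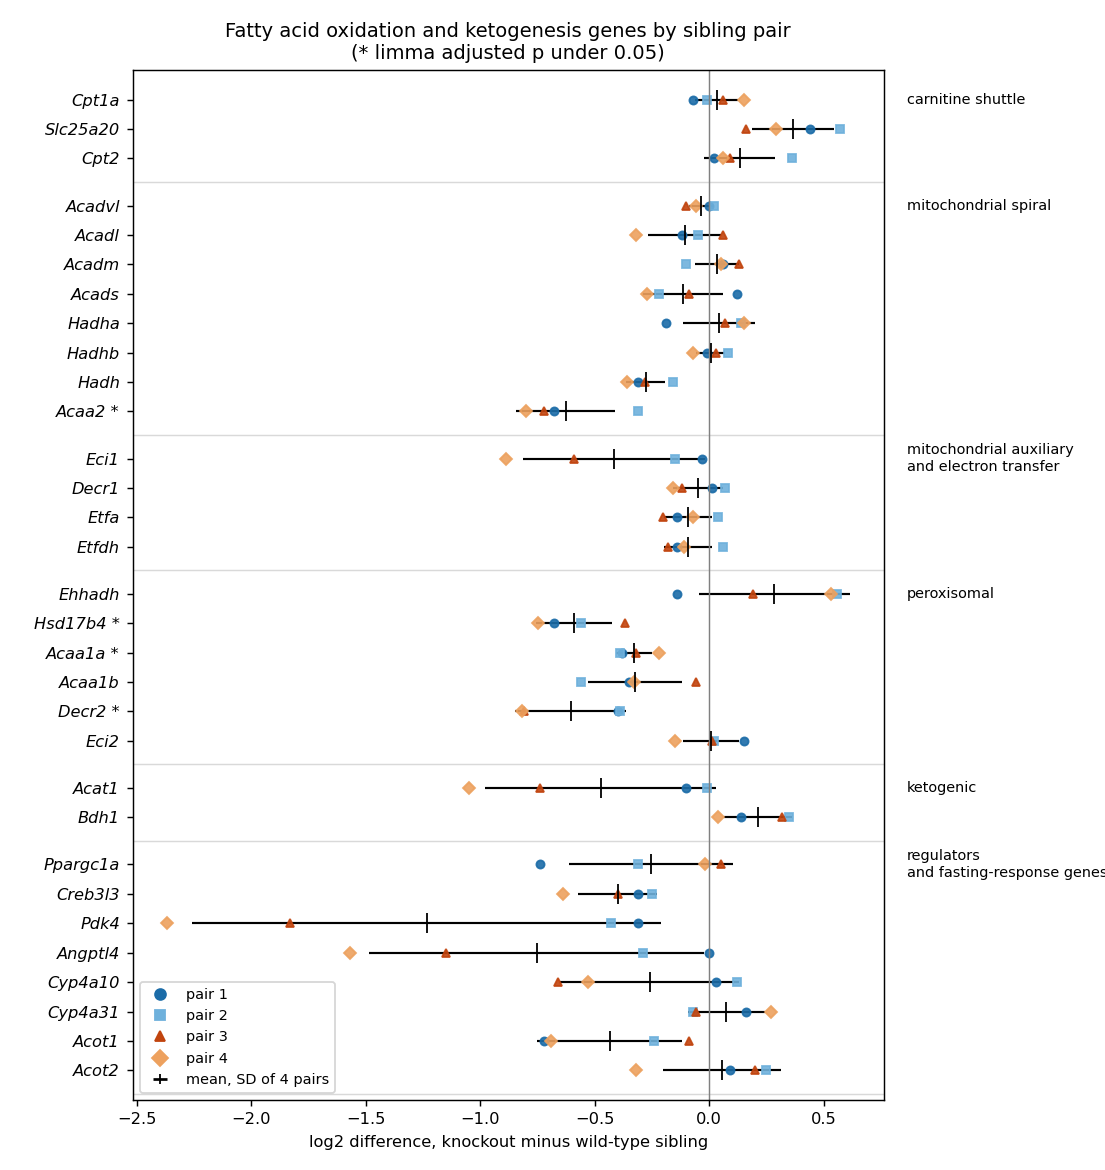
Log2 difference between each knockout and its wild-type sibling (x axis) for the 31 measured genes, grouped by role; coloured symbols are the 4 pairs, the black tick is the mean and the bar its SD. Most mitochondrial genes lie near 0, Hsd17b4, Decr2, Acaa1a and Acaa2 lie below 0 in every pair, and Pdk4 and Angptl4 have wide bars because pairs 3 and 4 lie far below pairs 1 and 2.

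Of the 6 peroxisomal genes 3 fell and 0 rose, with a class median of −0.33. Hsd17b4 encodes the D-bifunctional protein, which hydrates and dehydrogenates very-long-chain and branched acyl chains. It was 9.70, 9.77, 9.88 and 9.70 in the knockouts of pairs 1 to 4 and 10.38, 10.33, 10.25 and 10.45 in their siblings. Every knockout lay below every wild type. The difference was −0.59 ± 0.166 (SD, n = 4 pairs), with a limma adjusted p = 0.0210. Decr2, the peroxisomal dienoyl-CoA reductase gene for unsaturated chains, was 8.97, 8.97, 8.81 and 8.82 in knockouts and 9.37, 9.36, 9.62 and 9.64 in siblings. The groups did not overlap, and pairs 3 and 4 were farther apart than pairs 1 and 2. The difference was −0.60 ± 0.243 (limma adjusted p = 0.0306).

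Acaa1a encodes a peroxisomal thiolase, the last step of the peroxisomal spiral. It was 9.70, 9.70, 9.75 and 9.79 in knockouts and 10.08, 10.09, 10.07 and 10.01 in siblings, again without overlap. The difference was small and even across pairs, −0.33 ± 0.0780 (limma adjusted p = 0.0494). Its neighbour in function, Acaa1b, a close paralog, had almost the same mean difference but did not pass the test (−0.33 ± 0.205, adjusted p = 0.0916), and it was lower in 4 of 4 pairs. Whether probes of these paralogs pick up each other's transcripts was not tested.

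The peroxisomal genes Ehhadh and Eci2 did not move that way. Ehhadh, which encodes the L-bifunctional enzyme and is a classical PPARα target, was 10.67, 11.05, 10.95 and 11.16 in knockouts and 10.81, 10.49, 10.76 and 10.63 in siblings. It was higher in 3 of 4 pairs and lower in pair 1, and the groups overlapped. The difference of 0.28 ± 0.329 did not pass the test (limma adjusted p = 0.210, 95% interval −0.02 to 0.59). Eci2, an enoyl-CoA isomerase found in peroxisomes and mitochondria, differed by 0.01 (95% interval −0.18 to 0.19). The class thus held 3 genes that fell, Acaa1b, which was lower in 4 of 4 pairs without a call, and Eci2 near 0. Ehhadh had a mean above 0 by 0.28 with a wide spread. Without a test, 4 of the 6 (66.7%) were lower in all 4 pairs, against 17.9% of all probe sets.

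**Figure D2:**
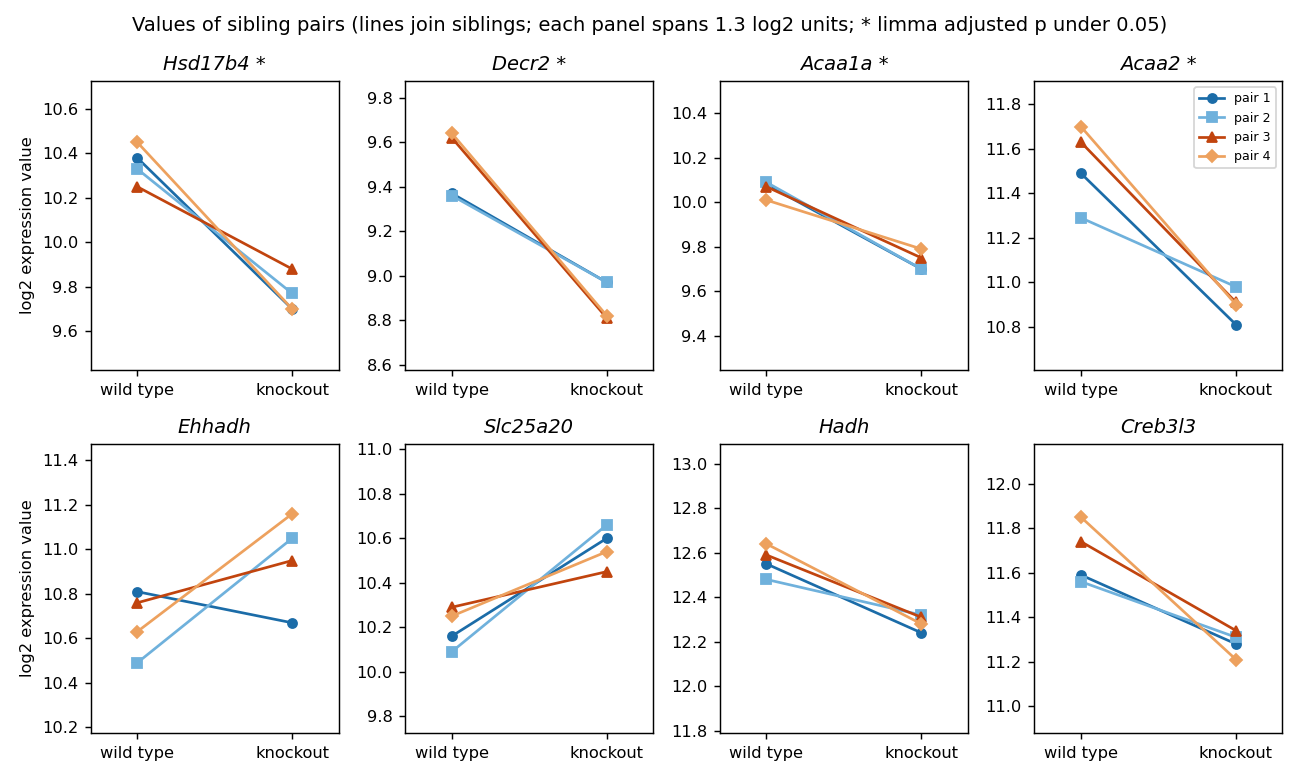
Log2 expression values (y axis, each panel spanning the same 1.3 log2 units) of wild-type and knockout siblings, joined by a line per pair, for 8 of the genes. Lines for the called genes Hsd17b4, Decr2, Acaa1a and Acaa2 slope down in 4 of 4 pairs, those of Hadh and Creb3l3 slope down and those of Slc25a20 slope up in 4 of 4 pairs without passing the test, and those of Ehhadh go both ways.

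For Acaa1a and Decr2 the RefSeq promoter table (GRCm38.p6) held an entry, as it did for 24 of the 31 genes. Their 250 bases before the transcript start are shown, since these genes fell together, with CpG dinucleotides in capitals.
Acaa1a (chr9:119341044-119341293, plus strand): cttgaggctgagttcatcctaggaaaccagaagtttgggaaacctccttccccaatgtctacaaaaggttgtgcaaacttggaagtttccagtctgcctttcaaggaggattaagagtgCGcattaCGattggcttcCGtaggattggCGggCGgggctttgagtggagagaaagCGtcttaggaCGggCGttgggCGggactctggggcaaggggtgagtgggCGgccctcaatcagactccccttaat
Decr2 (chr17:26090165-26090414, minus strand): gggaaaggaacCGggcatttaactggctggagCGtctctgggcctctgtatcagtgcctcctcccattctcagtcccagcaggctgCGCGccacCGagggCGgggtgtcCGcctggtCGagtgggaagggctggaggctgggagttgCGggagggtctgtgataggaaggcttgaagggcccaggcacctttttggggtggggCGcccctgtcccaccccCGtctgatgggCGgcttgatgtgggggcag
PPARα binds paired copies of the hexamer AGGTCA in direct repeat with 1 base (N, any letter) between them. This exact repeat, which contains the hexamer, was searched on both strands from 250 bases before to 50 after each start. It occurred in 0 of the 24 genes and in 0.0396% of 32851 promoters. The single hexamer occurred in 4 of the 24 genes and in 18.1% of all 27025 genes with an entry (16.3% of promoters). Neither Acaa1a nor Decr2 was among the 4, and promoters of Hsd17b4 and Acaa2 were not analysed here.

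The 4 genes with the hexamer were Cpt1a, Acadm, Acadvl and Creb3l3, and none of them was called. Windows of 30 bases are shown with the hexamer, or its reverse complement TGACCT, in capitals, and Creb3l3 had it in 1 of its 2 entries.
Cpt1a (chr19:3323195-3323224, plus strand, 94 bases before the start): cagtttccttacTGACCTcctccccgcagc
Acadm (chr3:153944864-153944893, minus strand, 249 bases before the start): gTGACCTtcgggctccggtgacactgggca
Acadvl (chr11:70015498-70015527, minus strand, 87 bases before the start): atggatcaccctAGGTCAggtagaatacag
Creb3l3 (chr10:81092776-81092805, minus strand, 202 bases before the start): taagtaggggagAGGTCAcacagacccgac
These matches describe letters in a window and show no binding.

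Of the 15 mitochondrial genes 1 fell (6.67%, against 2.70% of all probe sets) and 0 rose. At an unadjusted p under 0.05 limma gave 3 lower and 1 higher, against 14.2% and 13.2% of all probe sets. Acaa2 encodes a thiolase that ends rounds of the mitochondrial spiral for shorter chains. It was 10.81, 10.98, 10.91 and 10.90 in knockouts and 11.49, 11.29, 11.63 and 11.70 in siblings. All knockouts lay below all wild types, and pair 2 had the smallest gap. The difference was −0.63 ± 0.217 (limma adjusted p = 0.0237), the largest in size among the mitochondrial genes.

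Hadh, the hydroxyacyl-CoA dehydrogenase for shorter chains that acts one step earlier, was 12.24, 12.32, 12.31 and 12.28 in knockouts and 12.55, 12.48, 12.59 and 12.64 in siblings. The groups did not overlap, but the difference of −0.28 ± 0.0850 did not pass the test (limma adjusted p = 0.0707). The acyl-CoA dehydrogenases open each round and divide the work by chain length. Acadvl (very long), Acadl (long), Acadm (medium) and Acads (short) differed by −0.04 ± 0.0551, −0.11 ± 0.160, 0.04 ± 0.0968 and −0.12 ± 0.174. None of the 4 passed the test, and their 95% intervals lay within −0.33 and 0.21.

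Hadha and Hadhb encode the alpha and beta subunits of the trifunctional protein, which carries out the remaining steps for long chains. Their differences were 0.04 ± 0.159 and 0.01 ± 0.0634, with 95% intervals of −0.16 to 0.25 and −0.16 to 0.17. Values of knockouts and wild types overlapped for both. The genes lie head to head, and the 272 bases between their annotated starts, chr5:30154981-30155252 (GRCm38.p6, plus strand), form the upstream region of both. The stretch is shown because it serves a pair of genes neither of which was called, with its 18 CpG dinucleotides in capitals.
Hadha to Hadhb: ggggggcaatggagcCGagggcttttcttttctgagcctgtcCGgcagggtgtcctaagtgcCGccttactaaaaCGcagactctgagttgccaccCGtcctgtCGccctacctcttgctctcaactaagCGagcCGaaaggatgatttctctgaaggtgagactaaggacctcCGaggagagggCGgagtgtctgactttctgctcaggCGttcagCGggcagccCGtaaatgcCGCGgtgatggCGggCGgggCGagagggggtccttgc
It held 0 copies of AGGTCA on either strand, and 60.3% of its bases were G or C.

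The carnitine shuttle had 0 of 3 genes called. Cpt1a, the gated outer-membrane transferase that sets the rate of entry, was 9.52, 9.55, 9.59 and 9.65 in knockouts and 9.59, 9.56, 9.53 and 9.50 in siblings. The groups overlapped, and the difference was 0.03 ± 0.0946 (95% interval −0.14 to 0.21). Slc25a20, the carnitine-acylcarnitine exchanger of the inner membrane, was 10.60, 10.66, 10.45 and 10.54 in knockouts and 10.16, 10.09, 10.29 and 10.25 in siblings. It was higher in 4 of 4 pairs without overlap, but its difference of 0.36 ± 0.178 missed the threshold (limma adjusted p = 0.0629). Cpt2, which re-forms acyl-CoA in the matrix, differed by 0.13 ± 0.154 (adjusted p = 0.351).

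Among the auxiliary and electron transfer genes 0 of 4 were called. Etfa and Etfdh, which pass electrons from the dehydrogenases to the respiratory chain, both differed by −0.09. Decr1, the mitochondrial dienoyl-CoA reductase, differed by −0.05 ± 0.108, while its peroxisomal counterpart Decr2 fell. That contrast between the reductases was not itself tested. Eci1, the mitochondrial enoyl-CoA isomerase, differed by −0.03, −0.15, −0.59 and −0.89 in pairs 1 to 4, so the mean of −0.41 rested mostly on pairs 3 and 4 (limma adjusted p = 0.138).

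The ketone body genes among the 31 gave no call. Acat1, the mitochondrial acetoacetyl-CoA thiolase, was 10.10, 10.14, 9.84 and 9.70 in knockouts and 10.20, 10.15, 10.58 and 10.75 in siblings. Siblings were nearly equal in pairs 1 and 2 and about 1 log2 unit or less apart in pairs 3 and 4, with a mean difference of −0.47 ± 0.503 (limma adjusted p = 0.155). Bdh1, which interconverts acetoacetate and hydroxybutyrate, was 9.57, 9.69, 9.71 and 9.59 in knockouts and 9.43, 9.34, 9.39 and 9.55 in siblings. It was higher in 4 of 4 pairs by 0.21 ± 0.148 (adjusted p = 0.159).

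Of 7 further ketone body genes 5 were measured, and 2 rose. Oxct1 encodes the transferase that commits acetoacetate to use as fuel, so it belongs to ketone body breakdown. It was 11.60, 11.90, 11.79 and 12.04 in knockouts and 10.96, 10.69, 10.82 and 10.69 in siblings. All knockouts lay above all wild types, and the rise was 1.04 ± 0.311, or 2.06-fold (limma adjusted p = 0.0129). Aacs, the cytosolic acetoacetyl-CoA synthetase that feeds acetoacetate into lipid synthesis, rose by 0.44 ± 0.0776 (adjusted p = 0.0261), with 0.50, 0.34, 0.41 and 0.50 in pairs 1 to 4. Oxct1 lost its call without pair 2 (limma adjusted p = 0.0626) and with the acinar pancreas markers as a covariate (0.0519), and Aacs without any 1 pair (0.0701 to 0.0914). Aacs also lost it with sex, RNA integrity, the adipocyte mean or the acinar mean as a covariate (0.0604 to 0.0779).

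Among the 8 regulators and fasting-response genes 0 were called. At an unadjusted p under 0.05 limma gave 4 lower and 0 higher, against 14.2% and 13.2% of all probe sets. Creb3l3 encodes a membrane-bound transcription factor that works with PPARα on fasting genes. It was 11.28, 11.31, 11.34 and 11.21 in knockouts and 11.59, 11.56, 11.74 and 11.85 in siblings. The groups did not overlap, and the difference of −0.40 ± 0.171 lay just outside the threshold (limma adjusted p = 0.0505). Ppargc1a, a coactivator of mitochondrial genes, differed by −0.74, −0.31, 0.05 and −0.02 in pairs 1 to 4 (adjusted p = 0.282).

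Pdk4 and Angptl4 had the widest spread between pairs. Pdk4, the kinase that shuts glucose carbon out of the mitochondrion when fat is burned, was 7.36, 7.27, 6.77 and 6.50 in knockouts and 7.67, 7.70, 8.60 and 8.87 in siblings. It was lower in 4 of 4 pairs (−0.31, −0.43, −1.83 and −2.37), and the mean of −1.24 ± 1.02 did not pass the test (limma adjusted p = 0.0857). Angptl4, a secreted inhibitor of lipoprotein lipase, was 9.42, 9.28, 8.93 and 8.70 in knockouts and 9.42, 9.57, 10.08 and 10.27 in siblings. The siblings of pair 1 were equal, and the mean of −0.75 ± 0.732 did not pass either (adjusted p = 0.123).

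The acyl-CoA thioesterases split acyl-CoA back into free acid. Acot1, the cytosolic form, differed by −0.72, −0.24, −0.09 and −0.69 in pairs 1 to 4 (mean −0.43 ± 0.318, limma adjusted p = 0.0885). Acot2, the mitochondrial form, differed by 0.05 ± 0.259. Cyp4a10 and Cyp4a31, omega-hydroxylases of the endoplasmic reticulum, had means below 5.65, taken as background because 95% of the 1091 probe sets for olfactory receptors lay under it. Cyp4a10 differed by 0.03, 0.12, −0.66 and −0.53 and Cyp4a31 by 0.16, −0.07, −0.06 and 0.27, all at the array's background. Acot1 was near that level in the knockouts of pairs 1 to 4, at 5.60, 5.82, 5.90 and 5.58. Its siblings were at 6.32, 6.06, 5.99 and 6.27. How far this limits the size of its differences was not tested.

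Markers of other tissues moved with the pairs. Of 15 acinar pancreas markers 13 were measured and 0 were called. At an unadjusted p under 0.05 limma gave 8 lower, against 14.2% of all probe sets. The acinar median differences were −0.44, 0.10, −3.93 and −3.35 in pairs 1 to 4. Mean levels of these markers per array ran from 6.24 to 8.03 in knockouts and from 7.64 to 10.2 in wild types. None had a mean below background. The 9 measured adipocyte markers of 11 differed by medians of 2.08, 1.64, 0.19 and 0.19, with mean levels from 7.10 to 8.64 in knockouts and from 5.87 to 7.13 in wild types. The brown fat markers Ucp1, Cidea and Dio2, whose tissue is rich in these enzymes, all had means below background. Of 8 hepatocyte markers 5 had means below background and 1 rose, Tat, by 2.10 ± 0.369 (limma adjusted p = 0.00253), while Fgb and Ttr lay above background and differed by −0.12 and −0.01. Smooth muscle markers had medians of 0.19, 0.02, −0.48 and −0.61.

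Pdk4, Angptl4, Acat1 and Eci1 were lowest against their siblings in pairs 3 and 4, the pairs with the acinar difference. The part of acinar tissue in this was not tested directly. With the acinar mean as a covariate beside the pair, differences were −0.39 for Pdk4, −0.17 for Angptl4, −0.06 for Acat1 and −0.11 for Eci1, and none was called. With the adipocyte mean they were −2.17, −1.41, −0.92 and −0.77, and all 4 were called lower. Either covariate mainly sets pairs 1 and 2 apart from pairs 3 and 4. With the acinar mean the 4 genes that fell lost their calls (limma adjusted p from 0.0579 to 0.0830), and with the adipocyte mean Hsd17b4 (0.0757) and Acaa1a (0.169) did. In pairs 1 and 2 alone their differences were −0.62 for Hsd17b4, −0.49 for Acaa2, −0.40 for Decr2 and −0.39 for Acaa1a, and none was called (adjusted p from 0.134 to 0.176).

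**Figure D3:**
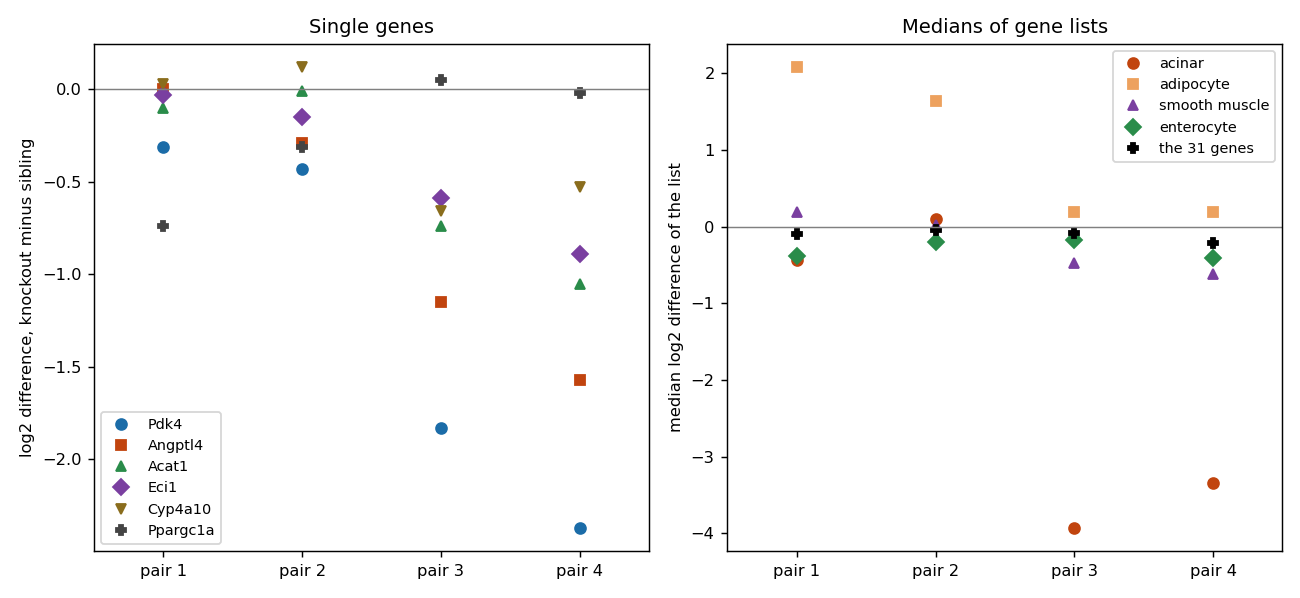
Log2 difference between knockout and sibling (y axis) in each pair (x axis) for 6 single genes (left) and as the median of 5 gene lists (right). Pdk4 goes from −0.31 in pair 1 to −2.37 in pair 4, and the acinar markers from −0.44 in pair 1 to −3.93 in pair 3, while the median of the 31 genes stays between −0.22 and −0.05.

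The 4 calls rested on all pairs together. With 3 pairs, limma called 0 of the 31 genes without pair 1 (14 at an unadjusted p under 0.05), Acaa2 alone without pair 2 (adjusted p = 0.0407), Hsd17b4 alone without pair 3 (0.0313) and 0 without pair 4 (11 at an unadjusted p under 0.05). Over these fits the adjusted p of Decr2 ran from 0.0667 to 0.0941 and that of Acaa1a from 0.102 to 0.165. Over all probe sets these 3-pair fits gave 68, 56, 240 and 96 lower calls, against 599 with 4 pairs.

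Other genes of the same routes, listed by pathway, gave 4 higher and 4 lower of 64 measured. Each is 6.25%, against 3.16% higher and 2.70% lower over all probe sets. Among 15 further peroxisomal genes 2 fell and 0 rose. Pecr, the peroxisomal enoyl-CoA reductase, was 7.89, 7.67, 7.84 and 7.65 in knockouts and 8.40, 8.64, 8.42 and 8.50 in siblings, a fall by 0.73 ± 0.218 without overlap (limma adjusted p = 0.0180). Acot4, a peroxisomal thioesterase for dicarboxylic acyl-CoA, fell by 0.92 ± 0.372 (adjusted p = 0.0232). Pecr lost its call without pair 2 or 4, and Acot4 without pair 1, 2 or 4. Both also lost it with the adipocyte mean (limma adjusted p 0.0622 for Pecr, 0.0859 for Acot4) and with the acinar mean (0.0511 and 0.0643).

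Among 11 genes of fatty acid activation and carnitine esters 2 fell. Acsl5, an acyl-CoA synthetase of enterocytes, fell by 0.38 ± 0.130 (limma adjusted p = 0.0465), and Crat, the carnitine acetyltransferase, by 0.38 ± 0.143 (adjusted p = 0.0484). Both lost the call without any 1 pair (Acsl5 0.0707 to 0.146, Crat 0.0977 to 0.138) and with each covariate. Centring on all enterocyte markers turned them to 0.05 and 0.04, and centring on those other than the lactase gene Lct gave −0.10 and −0.11. Of 11 further mitochondrial oxidation genes limma called 0. At an unadjusted p under 0.05 it gave 1 lower and 2 higher, against 14.2% and 13.2% of all probe sets. Echs1, the short-chain enoyl-CoA hydratase, differed by 0.25 ± 0.133 and was higher in 4 of 4 pairs (adjusted p = 0.111).

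Of 22 PPAR receptors and other responsive genes 2 rose and 0 fell, and the 2 were a receptor and a coactivator, Pparg and Ppargc1b. At an unadjusted p under 0.05 limma gave 5 lower and 4 higher, against 14.2% and 13.2% of all probe sets. Without a test, 7 of the 22 (31.8%) were lower in all 4 pairs and 3 (13.6%) were higher, against 17.9% and 16.5% of all probe sets. Ppara itself was 7.67, 7.64, 7.93 and 7.56 in knockouts and 8.21, 8.18, 8.03 and 8.37 in siblings. It was lower in 4 of 4 pairs without overlap, by −0.50 ± 0.294 (limma adjusted p = 0.0601). Pparg, the receptor known for fat cells and also made in gut epithelium, rose by 1.02 ± 0.548 (adjusted p = 0.0375), with 1.09, 1.73, 0.42 and 0.84 in pairs 1 to 4. Adipocyte markers were highest against siblings in pairs 1 and 2 as well, and with their mean as a covariate Pparg differed by 0.63 and was not called (adjusted p = 0.161), while with the acinar mean it differed by 1.46 and was called (adjusted p = 0.0137). Ppargc1b, the coactivator related to Ppargc1a, rose by 0.79 ± 0.311 (adjusted p = 0.0235), with 0.48, 0.70, 0.76 and 1.22 in pairs 1 to 4. Pparg lost its call without pair 1, 2 or 4 (0.0346 to 0.111 over all 4 fits) and Ppargc1b without any 1 pair (0.0523 to 0.0879). Pparg also lost it with sex (limma adjusted p 0.0741) or RNA integrity (0.0732) as a covariate, and Ppargc1b with the acinar mean (0.0858).

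Reference lists for the organelles were set beside these classes. Of 20 general mitochondrial genes 2 rose and 0 fell, with a median of 0.14, against −0.07 for the 8 spiral genes. The import gene Timm23 rose by 0.44 ± 0.0826 (limma adjusted p = 0.0264) and the prohibitin gene Phb by 0.38 ± 0.0896 (adjusted p = 0.0385). In 12 of the 20 (60%) the knockout was higher in all 4 pairs, against 16.5% of all probe sets. Housekeeping genes did likewise, with 7 of 11 (63.6%) higher in all 4 pairs, a median of 0.19 and 1 call, so no shift particular to mitochondrial genes was shown. Of 14 genes listed for peroxisome assembly, with the catalase gene Cat among them, 0 were called by limma. Their median was −0.04, against −0.33 for the 6 peroxisomal oxidation genes. At an unadjusted p under 0.05 limma gave 1 of the 14 lower and 1 higher, against 14.2% and 13.2% of all probe sets. The lower was Cat, an enzyme gene and not an assembly gene, at −0.31 ± 0.0993 and lower in 4 of 4 pairs (limma adjusted p = 0.0601). The higher was the assembly gene Pex3, at 0.225 (adjusted p = 0.107). Markers of enterocytes, the cells in which these routes are active, had 3 of 17 lower (17.6%, against 2.70% of all probe sets). Their median was −0.25, with −0.39, −0.20, −0.17 and −0.41 in pairs 1 to 4. Of 8 crypt and cycling markers 2 rose, Mki67 by 0.51 and Top2a by 0.51 (limma adjusted p = 0.0235 and 0.0321). That list was mixed, with a median of 0.08. At an unadjusted p under 0.05 limma gave 4 of the 8 higher and 2 lower, against 13.2% and 14.2% of all probe sets. Lower were Lgr5, at −0.23, and Ascl2, at −0.265 with a mean below background. Of 11 secretory markers 2 fell, Chga by 0.73 and Ang4 by 1.84 (limma adjusted p = 0.0233 and 0.0477), and the list median was −0.09. The part of enterocyte markers in the falls of Hsd17b4, Decr2, Acaa1a and Acaa2 was not tested beyond the centring given next.

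**Figure D4:**
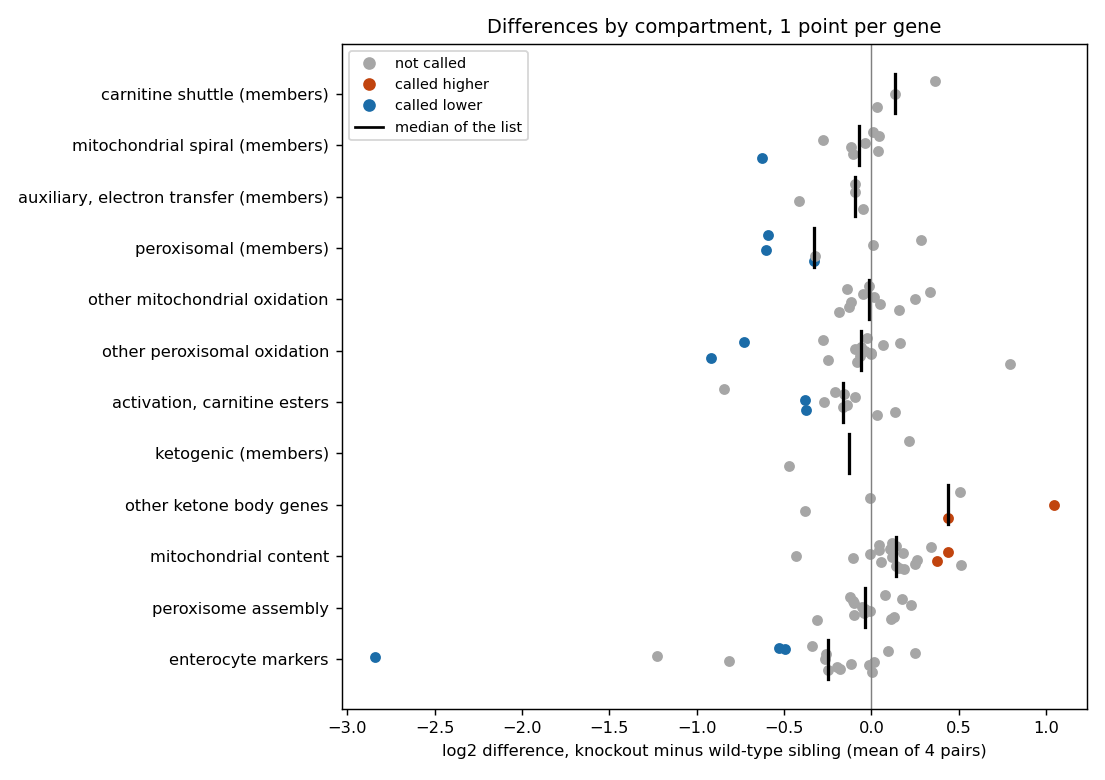
Mean log2 difference of each gene (x axis, 1 point per gene, n = 4 pairs) by list, with list medians as black ticks and called genes in colour. The peroxisomal genes centre on −0.33 with 3 called lower, while the general mitochondrial genes centre on 0.14 with 2 called higher.

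The directions depend on the scaling. Centring on housekeeping genes moved the median of all probe sets to −0.18 and gave 12 of the 31 genes lower (38.7%) and 0 higher, against 23.3% and 2.24% of all probe sets. Centring on the enterocyte markers moved that median to 0.41 and gave 1 lower and 11 higher (35.5%), against 0.874% and 49.0% of all probe sets. The share of higher calls among all calls went from 54.0% to 8.78% and 98.2%. With the enterocyte centring Acaa2, Decr2 and Hsd17b4 kept their direction at −0.21, −0.18 and −0.17 and were not called, and Acaa1a turned to 0.09. That centring rests largely on Lct, which fell by 2.84. Centring on the markers other than Lct, an alternative added after seeing the data, gave −0.36, −0.33, −0.32 and −0.06 for Acaa2, Decr2, Hsd17b4 and Acaa1a, none called. It gave 2 of the 31 lower and 3 higher, against 1.33% and 22.1% of all probe sets. Which scaling is right was not tested.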

How the data were processed

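RNA of 8 duodena was hybridised to Clariom S mouse arrays. The authors deposited 1 log2 expression value per probe set, and the tools listed are RMA and, at version 4.0, Transcriptome Analysis Console, per the submitters' processing notes. Which step levelled the pair means is not given in the sources used. Siblings' deviations from their group means correlated between −0.913 and −0.870, as levelling gives, and the pair numbers come from the labels, so the pair was the block. Differences of pairs 1 and 2 (r = 0.682) and of pairs 3 and 4 (r = 0.673) were more alike than others (0.346 to 0.420), which the p-values do not allow for.

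Calls were made by lmFit and eBayes of limma 3.58.1 (R 4.3.3) over all 22206 probe sets, with Benjamini-Hochberg adjustment, two-sided, and 3 residual degrees of freedom, tested on simulated data. Values after ± are SDs of the 4 within-pair differences. Symbols came from the platform table, and all 19572 named probe sets matched RefSeq by gene ID. The members and lists were chosen with earlier results of these data known. All members were reported; from other pathway lists, called genes (at most 6 a list), Ppara and Echs1 were named. Timm23, Phb, the uptake, binding and transport genes of the closing section and single marker genes were chosen after their values were seen. Alternatives covered the block, pairs left out, covariates, scaling, filtering and variance.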

Additional observations from a re-analysis of the deposited data

Results flagged for a closer look

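Of 62 groups of 4 values tested for a single stray sample (31 genes in 2 genotypes), 1 was picked out, where chance picks about 1 in 20. The wild type of pair 2 had a Cpt2 value of 9.35, below the other wild types at 9.51 to 9.53, and its knockout sibling had 9.71. Pair 2 thus carried most of the mean difference of Cpt2 (0.36, against 0.02, 0.09 and 0.06 in pairs 1, 3 and 4). As pair means were levelled, a stray value in 1 sibling is mirrored in the other.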

How the results depend on the processing

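Among the 31 genes, 4 were lower and 0 higher as reported (599 and 702 over all probe sets). Without the replicate block 12 were lower and 2 higher (4026 and 3622), with p-values too small because levelled siblings mirror each other. Leaving out 1 pair left 0 to 1 lower (56 to 240, and 89 to 219 higher over all probe sets). Pairs 1 and 2 alone gave 0 lower (0 and 0 over all probe sets by limma, 5278 at an unadjusted p under 0.05), and pairs 3 and 4 alone gave 0 (25 lower and 1 higher). Adding sex gave 1 (233 and 231), RNA integrity 0 (152 and 212), the acinar mean 0 (321 and 460) and the adipocyte mean 7 (440 and 404), with 2 of the 4 calls lost. Each of these covariates leaves 2 residual degrees of freedom. Centring on housekeeping genes gave 12 lower (5175), and centring on enterocyte genes 1 lower and 11 higher (194 and 10879), with Acaa1a at 0.0946, Crat at 0.0421 and Acsl5 at 0.0471. Leaving Lct out of that list, added after seeing the data, gave 2 lower and 3 higher (295 and 4913). Trend and robust variance gave 6 lower, the 4 with Hadh and Creb3l3, and 1 higher, Slc25a20 (862 and 1135). Filtering dim probe sets or quantile normalization kept the 4 calls and added Creb3l3. Each measured member had 1 probe set, so averaging probe sets changed nothing. Hsd17b4, Decr2 and Acaa2 kept their direction in all 17 alternatives, but many of these could not change it. Dropping the block, adding sex, filtering or changing the variance leaves the mean difference as it was. Fits on fewer pairs average differences that were all below 0.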

Other observations

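A few genes of fatty acid uptake and binding and of ketone body transport, singled out after their values were seen, did not differ in 1 direction across pairs. Cd36, which encodes a fatty acid translocase of enterocytes, fat cells and macrophages, differed by 1.60, 1.86, −0.64 and −1.15 in pairs 1 to 4, a mean of 0.42 ± 1.53 that was not called (limma adjusted p = 0.641). Slc27a2, a fatty acid transport protein with very-long-chain acyl-CoA synthetase activity, differed by −0.04, 0.01, −1.30 and −2.05 (adjusted p = 0.175). Slc16a6, a monocarboxylate transporter gene linked to ketone body export, differed by 0.88, 1.63, −0.13 and −0.35 (adjusted p = 0.344). Fabp1, the liver-type fatty acid binding protein gene, differed by 2.61 in pair 2 and by −0.08, −0.39 and −0.86 in pairs 1, 3 and 4. Other genes of binding and transport did differ in 1 direction. Fabp2, the intestinal fatty acid binding protein gene, differed by −0.40, −0.61, −0.20 and −2.05 in pairs 1 to 4 (limma adjusted p = 0.135). Slc22a5, a carnitine transporter gene, differed by −0.37, −0.29, −0.08 and −0.10 (adjusted p = 0.159).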
